A study of Mus musculus with 29 samples.

Results

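The question was whether removing microglia between 2 injections of lipopolysaccharide (LPS) alters what the first injection does to the response to the second. It was asked for each gene as a difference of differences on the log2 scale, (LBL minus PBL) minus (LL minus PL). LL minus PL is the effect of earlier LPS in mice that kept their microglia, and LBL minus PBL is the same effect in mice whose microglia were depleted and grew back. The contrast uses 19 of the 29 libraries of the series and covers all 16632 genes that passed the filter on low counts, of 36982 in the table. A difference below 0 means a more negative effect of earlier LPS after depletion.

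All mice were male C57BL/6J animals that received 1 injection into the abdomen at 10 weeks of age and another 5 weeks later, and microglia were taken 3 h after the second. PL mice (n = 4) had saline first and 1 mg/kg LPS second, and LL mice (n = 5) had LPS at 1 mg/kg both times; both were given vehicle in the weeks between. PBL (n = 5) and LBL (n = 5) mice had the same injections as PL and LL, and were gavaged with BLZ945, which blocks CSF1R, on 5 consecutive days (daily dose 169 mg/kg), begun 1 week after the first injection. The matched mice without LPS, PP (saline both times, vehicle, n = 5) and PBP (saline both times, BLZ945, n = 5), share the model fit and give the unstimulated level. The microglia were sorted as DAPI-negative, CD11b-high, CD45-intermediate cells that lacked Ly6C. A group with earlier LPS followed by saline was not analysed here, so a level left over from the first injection and a smaller second response cannot be told apart. The labels do not say whether each library is 1 animal, so the p-values describe only how these samples vary, which may be technical. In bulk RNA, fewer cells of a type and less RNA per cell cannot be told apart.

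As background, LPS is bound by CD14 and sensed by Toll-like receptor 4 (TLR4), which drives inflammatory genes through the transcription factor NF-kB and interferon-stimulated genes through interferon regulatory factors. Macrophages exposed to LPS answer a later dose with less of these transcripts, a state known as endotoxin tolerance, and microglia show a long-lasting form of it. Microglia depend on CSF1R signalling for survival, and after its blockade is lifted the brain is refilled mostly by division of surviving microglia.

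The promoters of 4 genes that were lower in both arms are shown because they carry the binding motifs of these pathways; the letters are the 250 bases upstream of the RefSeq start in build GRCm38.p6, 5′ to 3′ on the gene's strand, with motif matches on either strand in capitals. In Cxcl10, Nfkbia and Tnfaip3 the capitals include matches to the NF-kB consensus, and in Cxcl10 and Ifit1 matches to the interferon-stimulated response element, searched as GAAANNGAAA. The windows are chr5:92348890-92349139 on the minus strand for Cxcl10, a chemokine that draws T cells, chr12:55492648-55492897 on the minus strand for Nfkbia, which codes for the inhibitor that holds NF-kB in the cytoplasm, chr10:19015411-19015660 on the minus strand for Tnfaip3 (the first of 2 listed starts), which codes for the feedback enzyme A20, and chr19:34640639-34640888 on the plus strand for Ifit1, an antiviral RNA-binding protein.
Cxcl10: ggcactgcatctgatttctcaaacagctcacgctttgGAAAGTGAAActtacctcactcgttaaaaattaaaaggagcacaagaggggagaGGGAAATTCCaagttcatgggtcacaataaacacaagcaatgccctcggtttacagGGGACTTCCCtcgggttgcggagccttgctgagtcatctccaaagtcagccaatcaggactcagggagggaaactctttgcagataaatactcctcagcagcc
Nfkbia: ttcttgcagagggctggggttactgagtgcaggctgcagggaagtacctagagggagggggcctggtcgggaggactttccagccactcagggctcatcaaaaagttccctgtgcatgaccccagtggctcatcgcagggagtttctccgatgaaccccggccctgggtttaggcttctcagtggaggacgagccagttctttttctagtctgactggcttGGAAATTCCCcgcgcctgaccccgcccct
Tnfaip3: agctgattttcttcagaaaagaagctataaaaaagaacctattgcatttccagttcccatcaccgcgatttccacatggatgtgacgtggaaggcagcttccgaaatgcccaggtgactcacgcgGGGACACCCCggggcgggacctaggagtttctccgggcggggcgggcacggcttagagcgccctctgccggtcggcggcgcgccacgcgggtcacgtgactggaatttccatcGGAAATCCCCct
Ifit1: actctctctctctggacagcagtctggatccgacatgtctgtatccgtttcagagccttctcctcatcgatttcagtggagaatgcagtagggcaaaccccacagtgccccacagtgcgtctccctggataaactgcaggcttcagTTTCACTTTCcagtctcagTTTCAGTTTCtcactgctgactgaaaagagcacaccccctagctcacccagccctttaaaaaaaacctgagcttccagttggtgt
Of all 32851 windows in the RefSeq table, 4.51% held the NF-kB consensus and 3.44% the interferon element. These shares were taken over each whole window, of which the letters above are only the first 250 bases, so they are no background rate for the letters shown. The table held 175 of the 242 genes called lower in both arms, under the 80% needed, so a comparison of motif shares over that set is void and none is given. A match is a description and not a binding site.

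Total counts were 5670450 to 12671476 per library. The homeostatic microglia genes, among them P2ry12, Tmem119 and Cx3cr1, were abundant in every group, with a summed level of 52098 to 101154 CPM (each gene's count scaled to the library's TMM-adjusted total). Libraries stood apart in several ways. Sorting day and instrument nearly coincide with the groups: all PL libraries were sorted on a MoFlo Astrios (days 4 and 5, 2 libraries each), and all PBL (day 3), LL and LBL libraries (days 1 and 2) on a MoFlo XDP. LL minus PL therefore crosses instruments and LBL minus PBL does not, and the instrument cannot be told apart from PL in the difference of differences. LBL minus PBL crosses sorting days, day 3 against days 1 and 2. Sorting day therefore cannot be told apart from PBL in that effect or in the difference of differences. A term for the instrument could be fitted because of 1 PBP library, replicate 5, sorted on the XDP on day 3. PL replicate 2 had the lowest level of many LPS-induced genes in its group, and LL replicate 5, the only LL library of day 1, had the highest of many. PL replicate 3 had an RNA quality number of 6.5, the lowest, against 7.4 to 9.1 elsewhere. RNA quality was lowest in PBL as a group, with a mean of 7.64 (7.4 to 7.9) against 8.36 in LBL, 8.24 in LL and 8.225 in PL.

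Earlier LPS lowered 242 genes in both arms, most of them LPS-induced, and for 144 of them the 95% interval of the difference lay within 2-fold. Il1b, Tnf, Cxcl10, Tnfaip3 and Tlr2 fell at least 4-fold in both. Called at an adjusted p under 0.05 (edgeR quasi-likelihood test, Benjamini-Hochberg adjustment over all genes), 338 genes were lower in LL than in PL (2.03% of those tested) and 125 higher (0.752%). After depletion 665 were lower in LBL than in PBL (4%) and 456 higher (2.74%). Of all tested genes, 462 passed the filter on low counts only through the PBL libraries, which favours a lower level in LBL. These genes enter the counts of lower LBL values and of negative differences here and below, and their share of these counts was not taken. A fit of the 19 libraries alone gave 367 lower and 372 higher without depletion, so that the excess of lower calls was not seen there, and 731 lower and 428 higher after it. With a term for RNA quality LBL minus PBL had 442 lower and 196 higher. Of the calls of the full fit, 242 genes were lower in both (1.46% of all tested), which is 71.6% of the genes lower without depletion and 36.39% of those lower after it. Only 11 were higher in both (0.0661%), 8.8% and 2.412% of the respective lists, and 0 were called in opposite directions by the same test. Scaling by total counts alone moved the median of all genes to 0.132 without and 0.086 after depletion and changed the split to 223 higher and 224 lower without depletion and to 967 higher and 520 lower after it. The number lower in both was 284 without PL replicate 2 and 236 without LL replicate 5, but 8 with a term for the instrument, where LL minus PL had 11 calls in all. LL minus PL had 276 calls without PL replicate 1, 279 without PL replicate 4 and 732 without PBP replicate 5, against 463. LBL minus PBL had 680 without PBL replicate 4 and 669 without LBL replicate 2, against 1121.

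Genes called lower in 1 arm usually pointed the same way in the other. Of the 96 genes lower without depletion only, 86 had a negative value after depletion, and 39 had an unadjusted p under 0.05 for the difference. Of the 423 lower after depletion only, 336 were negative without it, and 178 had such a p. The genes lower after depletion had a median log2 change of -0.847 there and -0.484 without depletion; the genes lower without depletion had -0.956 there and -0.901 after depletion. Genes called higher were less alike: of 445 higher after depletion only, 293 were positive without it, and 270 had an unadjusted p under 0.05 for the difference. Of 114 higher without depletion only, 60 were positive after it, and 97 had such a p. Over all 16632 tested genes, 8085 were negative after depletion, 8082 were negative without it, and 2417 (14.5%) had such a p. Choosing genes by a call in 1 arm only favours a difference, so these counts are a description. Across genes, the changes correlated with Pearson's r = 0.189 over all tested genes and 0.427 over the 8775 with at least 10 CPM; genes are not independent replicates, and no p is given.

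**Figure D1:**
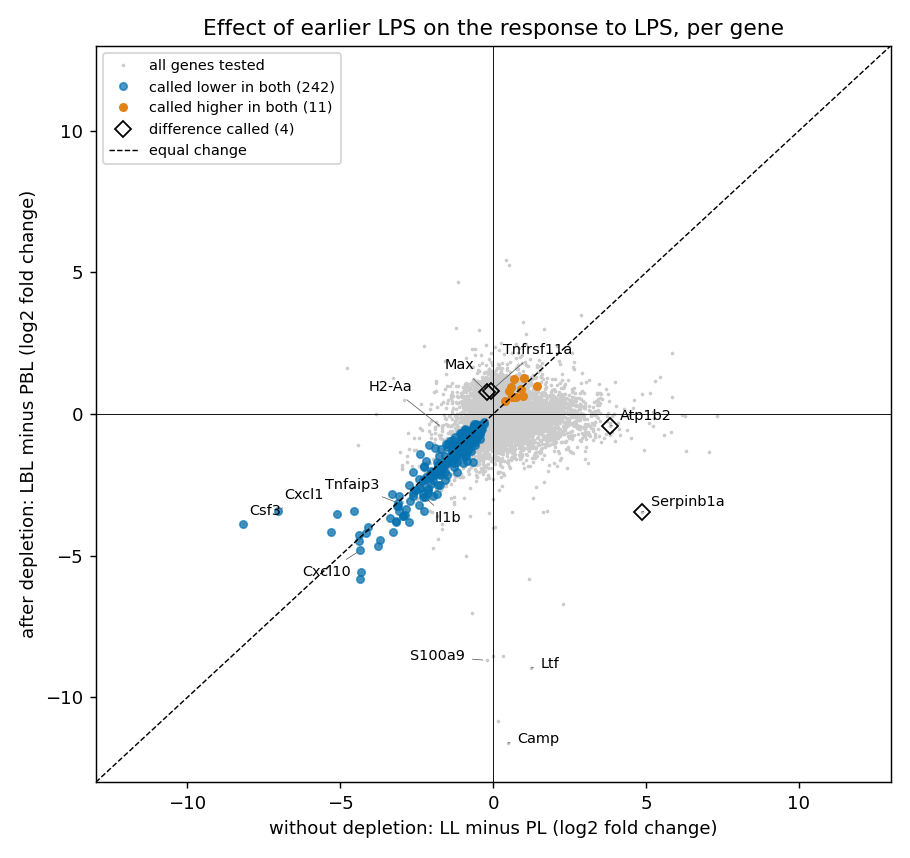
Log2 fold change of every tested gene by earlier LPS, without depletion (x axis, LL minus PL) and after depletion (y axis, LBL minus PBL). The 242 genes lower in both lie on both sides of the dashed line of equal change, some of them several log2 units from it. The 4 called differences are marked by diamonds. The neutrophil genes Camp, Ltf and S100a9 lie far below the line. They passed the filter on low counts only through PBL, so a lower level in LBL was fixed by the filter.

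The difference of differences itself was called for 4 genes (0.0241%), 2 higher (0.012%) and 2 lower (0.012%), all at an adjusted p of 0.0495 (edgeR), next to the threshold. At an unadjusted p under 0.05 there were 2417 genes (14.5%), 1108 positive and 1309 negative. DESeq2 called 31, and 0 were called by limma voom, with either other scaling, without the filter on low counts, or with terms for instrument, RNA quality or sorting day. The term for sorting day merged days 1 and 3, so it did not adjust for day 3 of PBL against day 1 of most LBL libraries. The count was 35 (3 higher and 32 lower) when only the 19 libraries were fitted, 34 without PBP replicate 5, 23 without PL replicate 3 and 104 with the PL libraries of day 4 only. It was 0 without any 1 of PL replicates 1, 2 and 4, PBL replicates 3 and 4, LL replicates 3 to 5 and LBL replicates 1 to 5. A p that misses the threshold does not show likeness, so the 95% interval of each difference was read as well. Of the 242 genes lower in both, 144 (59.5%) had an interval within 1 log2 unit of 0 on both sides, that is, within 2-fold, against 45.2% of all tested genes; 41 lay within 0.5. The count of 144 was 94 without PL replicate 1, 94 without PL replicate 3, and 0 with the instrument term. The median change of the 242 genes was -1.105 (log2) without depletion and -1.195 after it, with a median difference of -0.06 and a negative difference for 143 of them. These genes were chosen for being called lower in both, so their medians and bounded share are a description and no measure of likeness.

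Most of the genes lower in both were LPS-induced. Of the 242, 180 had been raised at least 2-fold in both first responses (PL against PP and PBL against PBP), 3 had been lowered in both, and 59 were neither. Over all 16632 tested genes, 1181 were raised at least 2-fold in PL and 2238 in PBL. Genes called lower than PL and PBL tend to be high in these groups, so the count of 180 is a description. To avoid choosing genes for a high value in the group they are compared with, genes induced in one arm were read in the other. PBL minus PBP crosses instruments as LL minus PL does, since 4 PBP libraries were sorted on the Astrios and 1 on the XDP. In the genes induced in PBL, instrument and LPS response therefore cannot be told apart, and the part of the instrument in their LL minus PL values was not tested. Of 2238 genes induced in PBL, 220 were lower in LL than in PL (9.83%, against 2.03% of all genes) and 51 were higher, but only 1010 were negative, and their median was 0.09 (log2). Of 1181 genes induced in PL, 321 were lower in LBL than in PBL (27.2%, against 4%) and 8 were higher; 940 were negative, with a median of -0.41.

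The cytokines and chemokines, the secreted signals of the response, moved together in both arms. Of 24 tested, 20 fell without depletion and 21 after it, and all of the 20 were among the 21; the median changes were -2.252 and -2.442 (log2), against 0.012 and 0.013 for all genes. No member was called for the difference, whose median was -0.131, although Cxcl1 and Csf3 had an unadjusted p under 0.05. Among the 24, Cxcl11 passed the filter on low counts only through PBL. Il1b, the fever-inducing cytokine processed by the inflammasome, had 320.1, 70.6, 398 and 381 CPM in PL and 65.8, 40.1, 59.9, 36.9 and 109 in LL. In PBL it had 390.3, 237, 271, 332 and 262 CPM and in LBL 25.9, 31.1, 63.6, 36.2 and 39.8. The repeated groups lay below the matching first-LPS groups except that LL replicate 5 was above PL replicate 2, and LL and LBL overlapped. The fall was log2 -2.23, SE 0.386, adjusted p 0.000794 without depletion and log2 -2.93, SE 0.387, adjusted p 1.47e-05 after it, and the difference was -0.70 (95% interval -1.79 to 0.39). Fitted with the instrument, the LL minus PL value of Il1b was -0.17 (adjusted p 0.987), and with PL libraries of day 4 only it was -1.63 (adjusted p 0.0839).

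Tnf, an early and potent inflammatory cytokine, had 158, 52.2, 203 and 174 CPM in PL and 21.9, 19.7, 33.1, 29.6 and 46.8 in LL. After depletion it had 169, 110.1, 175, 174 and 161 CPM in PBL and 28.6, 13.7, 21.7, 24.9 and 23.3 in LBL. Every repeated-LPS library was below every first-LPS library of its arm. Tnf fell by 2.29 on the log2 scale without depletion and by 2.82 after it, with a difference of -0.53 (interval -1.54 to 0.47). Cxcl10 had 523, 73.4, 549.8 and 419 CPM in PL and 8.18, 10.8, 7.88, 14 and 54 in LL. In PBL it had 690.4, 537, 847, 814 and 599 and in LBL 17.5, 10.1, 48.7, 16.2 and 32.8 CPM. The groups of each arm did not overlap, and the lowest PL library (replicate 2) and the highest LL library (replicate 5) were the nearest. Its changes were log2 -4.35, SE 0.558, adjusted p 2.75e-05 and log2 -4.82, SE 0.557, adjusted p 2.66e-06, and the difference was -0.47 with a wide interval of -1.95 to 1.01. Ccl3, a monocyte attractant, was bounded, with -2.02 and -2.10 and a difference interval of -0.99 to 0.82.

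Il12b, which codes for the p40 subunit of interleukin-12 and interleukin-23, fell by 2.88 and 3.58 on the log2 scale, but its call without depletion was lost without any 1 of PL replicates 1, 3 and 4 or LL replicates 1, 2 and 3, although the fall stayed between -2.55 and -2.85 (log2). Il6 fell less than Il1b and Tnf in both arms (log2 -0.59 and -0.95, both called). Its call without depletion was lost without PL replicate 1 (adjusted p 0.0775) or 3 (0.0708). Ccl2, which recruits monocytes through CCR2, was not called in either arm, with -0.82 (adjusted p 0.317) and -0.80 (adjusted p 0.244). The neutrophil attractant Cxcl1 had 8.59, 2.14, 6.51 and 3.84 CPM in PL and 1.43, 1.24, 1.36, 2.79 and 2.73 in PBL. It had 0.146, 0, 0, 0 and 0 CPM in LL and 0.631, 0, 0.155, 0 and 0.145 in LBL. Its fitted difference of 3.63 (adjusted p 0.244) rests on 1 read over all LL libraries. Csf3, the growth factor of neutrophils, had 0 counts in LL, a level at least 64.4-fold lower than in PL (floor of 3 counts over the group, counting error only), and was seen in 1 LBL library at 0.776 CPM.

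The libraries that stood apart, PL replicate 2 and LL replicate 5, move these values. Without PL replicate 2 the LL minus PL value was -2.55 for Il1b, -2.57 for Tnf, -4.69 for Cxcl10, -3.43 for Tnfaip3, -2.81 for Ifit1 and -2.32 for Tlr2. Without LL replicate 5 it was -2.53 for Il1b, -2.51 for Tnf, -5.25 for Cxcl10, -3.35 for Tnfaip3, -2.76 for Ifit1 and -2.38 for Tlr2. All were called in both cases. The difference for Cxcl10 was -0.12 without PL replicate 2 and 0.43 without LL replicate 5, and for Il1b it was -0.37 and -0.39. It turned from negative to positive for Tnfaip3 (0.29 and 0.21) and Tlr2 (0.20 and 0.26), and none of these was called.

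**Figure D2:**
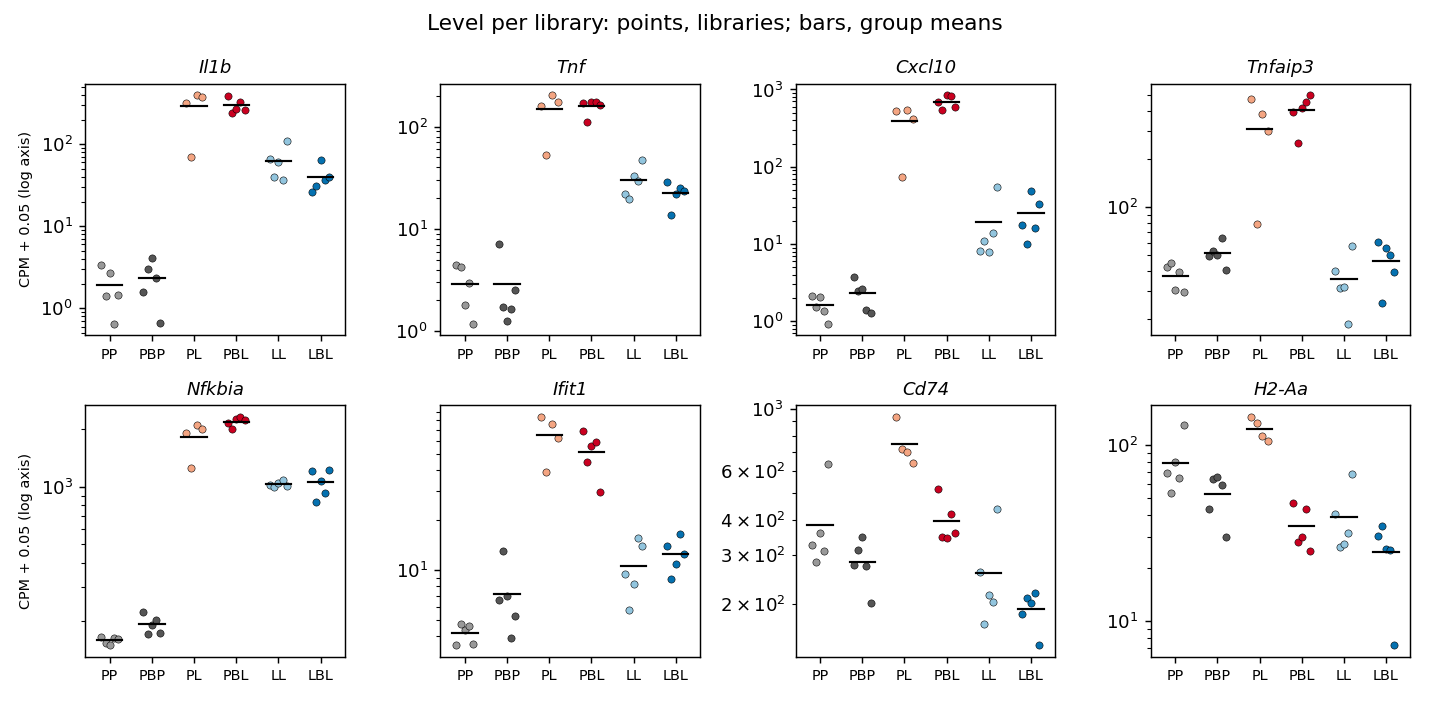
Level of 8 genes in each library (CPM plus 0.05, log axis; points, libraries; bars, group means) in the 6 groups. Il1b, Tnf, Cxcl10, Tnfaip3, Nfkbia and Ifit1 are high in PL and PBL and lower in LL and LBL, with PL replicate 2 below the other PL libraries, while H2-Aa and Cd74 are higher in PL than in PBL.

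The direct NF-kB targets and feedback regulators fell in both arms. Of 30 tested, 22 were lower without depletion and 27 after it, 21 in both, and all 30 had a negative value in each arm. Their medians were -1.234 and -1.597 (log2), the median difference was -0.201, and 23 of the 30 differences were negative, with 0 called by edgeR and 4 (13.3%, against 14.5% of all genes) at an unadjusted p under 0.05 (Nfkb1, Tnfaip2, Zc3h12a and Cflar, each more negative after depletion). Tnfaip3 had 475, 78.8, 380.3 and 301 CPM in PL and 39.7, 31.1, 31.5, 18.7 and 57.5 in LL. In PBL and LBL it had 395, 253, 416, 458 and 503 and 60.4, 25.3, 55.7, 50 and 39.3 CPM. All LL and LBL libraries were below all first-LPS libraries and near the unstimulated levels of PP and PBP, 37.1 ± 6.81 and 51.5 ± 8.56 (mean ± SD, n = 5 each). The falls were log2 -3.11, SE 0.358, adjusted p 7.92e-06 and log2 -3.14, SE 0.348, adjusted p 1.11e-06, and the difference was -0.03 (interval -1.01 to 0.95).

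Nfkbia fell less than Tnfaip3 in both arms and stayed above its unstimulated level, 158 ± 6.61 CPM in PP and 191 ± 21.4 in PBP (mean ± SD, n = 5 each). It had 1917, 1246, 2098 and 2012 CPM in PL, 1023, 991, 1046, 1087 and 1005 in LL, 2141, 2006, 2249, 2316 and 2222 in PBL and 1212, 834, 1072, 929.7 and 1219.8 in LBL. The lowest PL library was still above every LL library, and LL and LBL overlapped. Its changes were log2 -0.82, SE 0.113, adjusted p 1.62e-05 and log2 -1.05, SE 0.108, adjusted p 9.12e-08, and its difference interval of -0.55 to 0.08 was narrow. Nfkbie, a related inhibitor, and Cd83, an activation marker of antigen-presenting cells, were bounded, with differences of -0.23 (-0.93 to 0.46) and -0.05 (-0.78 to 0.69). Gadd45b, a stress-response gene, fell by 4.17 and 4.19 on the log2 scale, with an interval of -1.64 to 1.59 for the difference. Socs3, a brake on cytokine signalling, was called without depletion (-0.64, adjusted p 0.0449) and missed the threshold after it (-0.51, adjusted p 0.0656); its difference interval of -0.37 to 0.63 included 0. The call was lost in most alternatives, with an adjusted p of 0.239 without PL replicate 3.

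Of the interferon-stimulated genes, which code for antiviral proteins, some were called lower in each arm. Of 38 tested, 20 were lower without depletion and 22 after it, 17 in both, with medians of -0.939 and -0.803 and a median difference of 0.019. Among the 38, Ifi44 passed the filter on low counts only through PBL. Ifit1 had 84.1, 38.9, 75.8 and 62.3 CPM in PL and 9.49, 5.74, 8.19, 15.6 and 13.9 in LL. In PBL it had 69.3, 44.9, 56.1, 59.4 and 29.6 and in LBL 13.9, 8.75, 10.9, 16.5 and 12.4 CPM. The groups of each arm did not overlap, and LL and LBL did. The changes were log2 -2.63, SE 0.28, adjusted p 1.00e-06 and log2 -2.05, SE 0.268, adjusted p 2.14e-06, and the difference was 0.58 (-0.19 to 1.35). Isg15, a ubiquitin-like protein, fell by 1.54 and 1.73, with a difference interval of -0.80 to 0.42, and Gbp2, a guanylate-binding protein, was bounded at -0.90 to 0.68.

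Irf7, the master regulator of type I interferon genes, was called lower without depletion only. It had 10.8, 13.7, 20.4 and 8.07 CPM in PL, 3.21, 3.9, 4.55, 7.61 and 4.82 in LL, 24, 16.3, 17.2, 11.5 and 6.69 in PBL and 8.2, 7.49, 12.1, 15.4 and 13.6 in LBL. LL lay below PL in every library, whereas LBL and PBL overlapped over most of their range. Irf7 fell without depletion (log2 -1.46, SE 0.327, adjusted p 0.007) and was not called after it (log2 -0.41, SE 0.3, adjusted p 0.503); LBL was higher than LL (log2 1.24, SE 0.313, adjusted p 0.0387). The difference of differences was 1.05 (0.15 to 1.95) and was not called (adjusted p 0.281). The fall without depletion was not called without PL replicate 3 (-1.14, adjusted p 0.0715). Cmpk2, a nucleotide kinase beside Rsad2, had -2.11 and -1.08 (unadjusted p of the difference 0.0304), and Gbp5 went the other way with -1.58 and -2.31 (unadjusted p 0.0427); neither passed adjustment.

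Among 22 components of TLR4 signalling, 3 fell in both arms: Cd14, the co-receptor for LPS, Tlr2, the sister receptor for bacterial lipoproteins, and the kinase gene Map3k8. Tlr2 had differences bounded within -0.87 to 0.74 after falls of 2.06 and 2.12, and Cd14 had -0.89 and -0.76 with an interval of -0.22 to 0.48. After depletion the adaptors and kinase Traf3, Traf6 and Irak1 were also called lower, and Tlr4 was called higher. Tlr4 had 81.8, 98, 59.5 and 70 CPM in PL and 102, 94, 104, 129 and 73.7 in LL. It had 55.7, 59.7, 53, 48 and 40.2 in PBL and 88, 102, 97.1, 90.2 and 97.5 in LBL. All LBL libraries were above all PBL libraries, whereas LL and PL overlapped. The change was log2 0.38, SE 0.153, adjusted p 0.196 without depletion and log2 0.89, SE 0.146, adjusted p 9.36e-05 after it, and the difference of 0.51 (0.08 to 0.94) was not called (adjusted p 0.275). LBL and LL were not called apart (-0.08, adjusted p 0.866), and PBL was below PL (log2 -0.59, SE 0.154, adjusted p 0.00782).

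The MHC class II genes, which present peptides to CD4+ T cells, were called lower for more members without depletion than after it. Of 13 tested, 5 fell without depletion (H2-Aa, H2-Ab1, H2-Eb1, Cd74 and the thiol reductase gene Ifi30) and 2 after it (Cd74 and Ifi30), with medians of -0.273 and -0.089. Of the 13 differences, 2 were negative, 4 had an unadjusted p under 0.05 and 0 were called by edgeR; the median was 0.266. H2-Aa, the class II alpha chain, had 144, 133, 112 and 104 CPM in PL and 40.6, 26.2, 27.3, 31.7 and 68.1 in LL. It had 46.6, 27.9, 30.1, 43.3 and 24.9 in PBL and 30.3, 34.7, 25.4, 25.3 and 7.23 in LBL. PL stood above every other library of the 4 groups, and PBL, LL and LBL overlapped. H2-Aa fell without depletion (log2 -1.67, SE 0.326, adjusted p 0.00278) and was not called after it (log2 -0.48, SE 0.323, adjusted p 0.452), and the difference was 1.19 (SE 0.457, adjusted p 0.258).

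At the first LPS, PBL was below PL for H2-Aa (log2 -1.84, SE 0.331, adjusted p 0.000754) and H2-Ab1 (log2 -1.32, SE 0.256, adjusted p 0.00113), while LBL minus LL was -0.65 and -0.51 (adjusted p 0.396 and 0.374). Cd74, the invariant chain of class II, fell in both, with log2 -1.54, SE 0.233, adjusted p 0.000108 and log2 -1.06, SE 0.222, adjusted p 0.00317 and a difference of 0.48 (-0.17 to 1.14). Markers of border-associated macrophages, cells outside the brain tissue that carry class II, moved with this: the 10 markers summed to 94.5 to 164 CPM in PL, 58.3 to 98.8 in LL, 21.3 to 39.2 in PBL and 13.3 to 26.6 in LBL, and 7 of them were lower in PBL than in PL and 7 lower in LBL than in LL; 0 of the 10 were at 0 in any group. Their part in the class II values was not tested. With the instrument term the median difference of the class II list was -0.113 in place of 0.266, with 0 of its members lower in LL minus PL. Of 15 MHC class I genes, 4 fell without depletion (H2-K1, H2-D1, B2m and Tap1) and 3 after it (H2-K1, Tap1 and Nlrc5), with a median difference of 0.114.

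**Figure D3:**
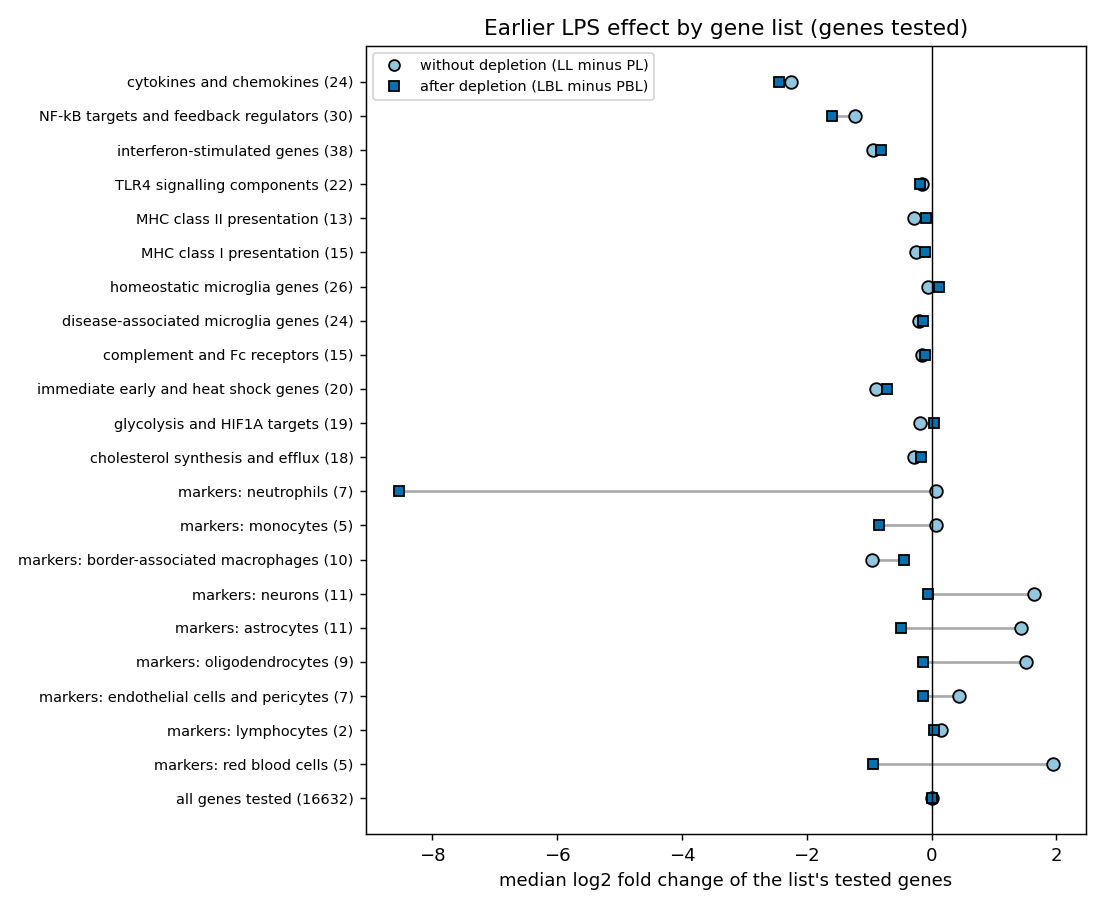
Median log2 fold change by earlier LPS of each gene list, without depletion (circles) and after it (squares), with the number of genes tested in parentheses. The cytokine, NF-kB and interferon lists have negative medians in both arms (-2.252 and -2.442, -1.234 and -1.597, -0.939 and -0.803), while the markers of neurons, astrocytes, oligodendrocytes and red blood cells have positive medians without depletion and negative ones after it.

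The other lists had few calls in either arm. Of 26 homeostatic microglia genes, 0 were lower in either arm, which is near the shares of all genes (2.03% and 4%). In this list 1 gene was higher without depletion and 3 after it, P2ry13 and Golm1 among the 3. Bounded within 1 log2 unit of 0 were 25 of the 26 differences, against 45.2% of all tested genes. By depletion, 12 of the 26 were lower in PBL than in PL (11.1% of all genes) and 2 lower in LBL than in LL (0.722%). Of 20 immediate early and heat shock genes, 3 fell in both (Egr2, Dusp1 and Dusp2), and after depletion Fosl2 and Jund were also lower and Klf6 higher; the list medians were -0.892 and -0.717. Of 19 genes of glycolysis and HIF1A targets, 2 fell in both: Pfkfb3, which codes for a glycolytic activator (-0.90 and -0.78), and Acod1, whose enzyme makes itaconate and is not part of glycolysis (-2.29 and -2.92). Ch25h, which makes 25-hydroxycholesterol, fell by 2.30 and 2.38 although its level differed by depletion, with means of 46.5 and 9.38 CPM in PL and LL and 197 and 38 in PBL and LBL. Its LL minus PL value with the instrument term turned to 4.58 (adjusted p 0.728), and without LL replicate 5 it was -2.93. Of 15 complement and Fc receptor genes, C5ar1 fell without depletion and Fcgr2b was higher after it. Of 24 disease-associated microglia genes, Ch25h was the only one lower in both.

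The 11 genes higher in both arms included Dtx4, Fam111a, Gna11, Inka1, Kcnj2, Pycard, Rgs2 and Ripor2, and 8 of the 11 had been lowered by LPS in both first responses. Over all 16632 tested genes, 1981 were called lower in PL than in PP and 3583 in PBL than in PBP. The count of 8 uses PL and PBL again, so it is a description. Rgs2, a regulator of G protein signalling, rose by 0.90 and 0.90, with a difference of 0.00 to 2 decimals (-0.57 to 0.57), from means of 91 and 68.4 CPM to 170.3 and 128. The count of 11 was 18 without PL replicate 2, 5 without PL replicate 3, PL replicate 4, LL replicate 3, LBL replicate 2 or LBL replicate 4, and 6 without PL replicate 1 or LL replicate 4.

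**Figure D4:**
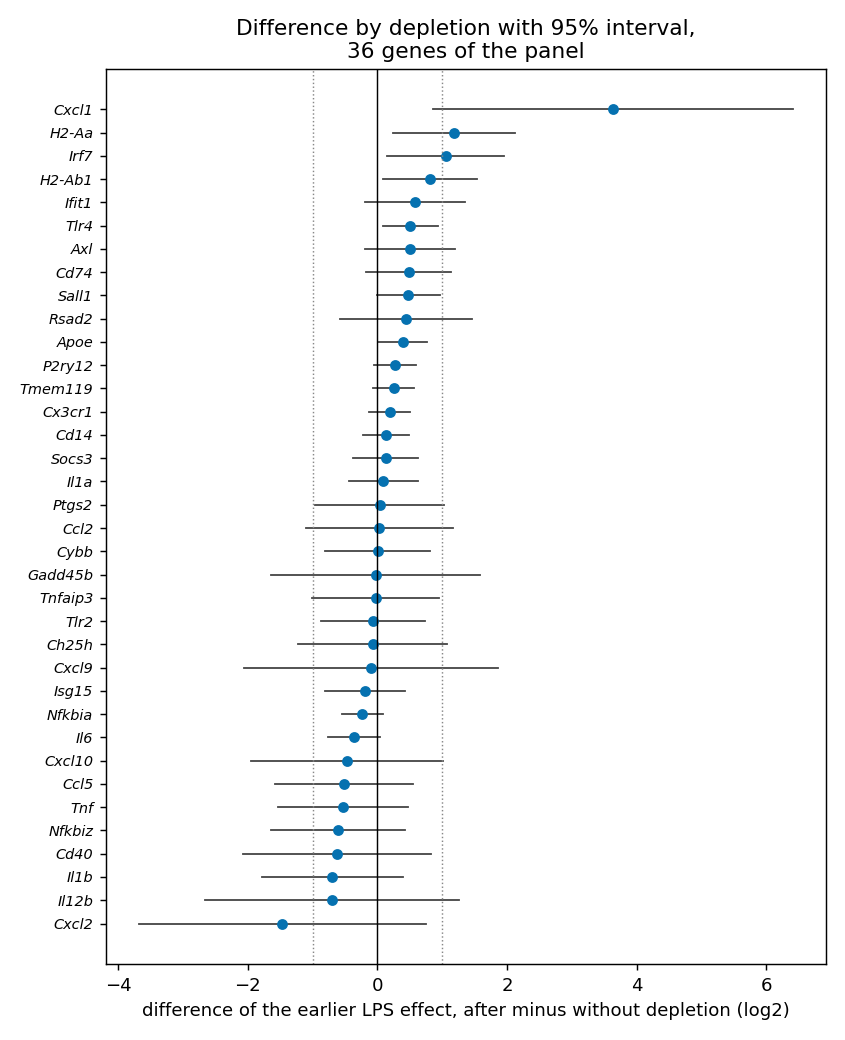
Difference of the earlier LPS effect (after minus without depletion, log2) with its 95% interval for 36 genes chosen to represent the response; dotted lines mark 2-fold. Most intervals include 0, and 14 of the 36 (38.9%, against 45.2% of all tested genes) lie wholly within the dotted lines.

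A log-scale difference and a linear one need not agree, so the share of the first response that was left at the repeated injection was also taken, as (LL minus PP) over (PL minus PP) and (LBL minus PBP) over (PBL minus PBP) from group means. Over 26 genes of the chosen panel that were raised in both first responses, a small part of all such genes, the median share left was 12.98% without depletion and 12.585% after it, and it was lower after depletion for 13 of the 26. It was 20.85% and 12.50% for Il1b, 18.97% and 12.67% for Tnf, 4.47% and 3.28% for Cxcl10, 52.55% and 43.21% for Nfkbia and 63.85% and 69.93% for Socs3. For Tnfaip3 it was -0.53% and -1.51%, a mean just under the unstimulated one in both arms. Irf7 had -16.59% and 43.23%. LL minus PP crosses instruments and PL minus PP does not. PBL minus PBP and LBL minus PBP both cross them for the 4 PBP libraries of the Astrios. The shares of the arms therefore carry the instrument in unlike ways, and its part in them was not tested.

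Of the 242 genes lower in both, 17 (7.02%, against 14.5% of all genes) had an unadjusted p under 0.05 for the difference, and none of the 17 passed adjustment with edgeR. For 14 of them the fall was larger after depletion. They include the NF-kB signalling gene Malt1 (-0.85 and -1.64), Zc3h12a, which codes for an RNase that degrades cytokine transcripts (-0.98 and -1.71), the histone demethylase gene Kdm6b (-0.91 and -1.46), the repressor gene Prdm1 (-1.19 and -2.04) and Lacc1 (-0.66 and -1.70); these were chosen after their values were seen. For the other 3, Csf3, Cxcl1 and Cmpk2, the fall was smaller after depletion, and the first 2 of these had at most 1 read over the LL libraries.

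The 4 genes called for the difference were not LPS-induced cytokines. Tnfrsf11a, which codes for the receptor RANK, had 42.7, 45.8, 46.8 and 55.7 CPM in PL and 51.2, 43.7, 43.1, 51.3 and 38.6 in LL. It had 32.1, 31.1, 28.2, 25.9 and 22.4 in PBL and 47.8, 48.2, 46.9, 54.2 and 50.3 in LBL. PBL lay below every other library, and PL, LL and LBL overlapped. The change was log2 -0.07, SE 0.122, adjusted p 0.844 without depletion and log2 0.83, SE 0.119, adjusted p 1.04e-05 after it, and the difference was 0.90 (SE 0.17, 0.55 to 1.24). Max, the dimerization partner of MYC, had 39.3, 53.7, 41.4 and 40.1 in PL, 22.2, 30.7, 27.5, 21 and 29.9 in PBL, 35.3, 46.5, 35.2, 35.3 and 37.7 in LL and 44, 46, 44.4, 48.5 and 42.1 CPM in LBL. PBL was again the low group, with no overlap, and the difference was 0.97 (SE 0.187, 0.59 to 1.35). With the instrument term the differences were 0.87 for Tnfrsf11a and 0.51 for Max (adjusted p 0.954 for both).

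Atp1b2, a subunit of the sodium pump that is abundant in astrocytes, had 0.498, 1.07, 1.18 and 2.12 CPM in PL and 8.61, 23.3, 14.6, 14.8 and 25.9 in LL. It had 18.6, 18.1, 31.5, 27.6 and 47.5 in PBL and 31.9, 26.2, 21.7, 13.9 and 14.2 in LBL. PL lay below every other library, and the other groups overlapped. It was higher in LL than in PL (log2 3.83, SE 0.606, adjusted p 0.000178) and not called in LBL against PBL (log2 -0.42, SE 0.428, adjusted p 0.672), and the difference was -4.25 (SE 0.742, -5.77 to -2.73). In PBP the 4 libraries sorted on the Astrios had 4.97, 6.56, 5.78 and 4.83 CPM, and the 1 sorted on the XDP had 31.8. With the instrument term the difference was -1.72 (adjusted p 0.954). Serpinb1a, an inhibitor of neutrophil proteases, had 0 counts in PL and 0.584, 0.077, 0.303, 0.83 and 0.548 CPM in LL, at least 4.53-fold higher at a floor of 3 counts over the group. It had 1.97, 1.24, 1.53, 5.12 and 3.83 in PBL and 0, 0.292, 0.621, 0 and 0.289 in LBL, so that PBL was the high group without overlap. Serpinb1a passed the filter only through PBL, so that a lower level in LBL was fixed by the filter and its call is no support for a difference. Its fitted difference of -8.32 depends on the zeros in PL and is no bound. Each of the 4 calls was lost under most alternatives that gave a value, with the sign kept in each, among them without PL replicate 1 (adjusted p 0.186 for Atp1b2, 0.0999 for Tnfrsf11a, 0.106 for Max and 0.186 for Serpinb1a).

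**Figure D5:**
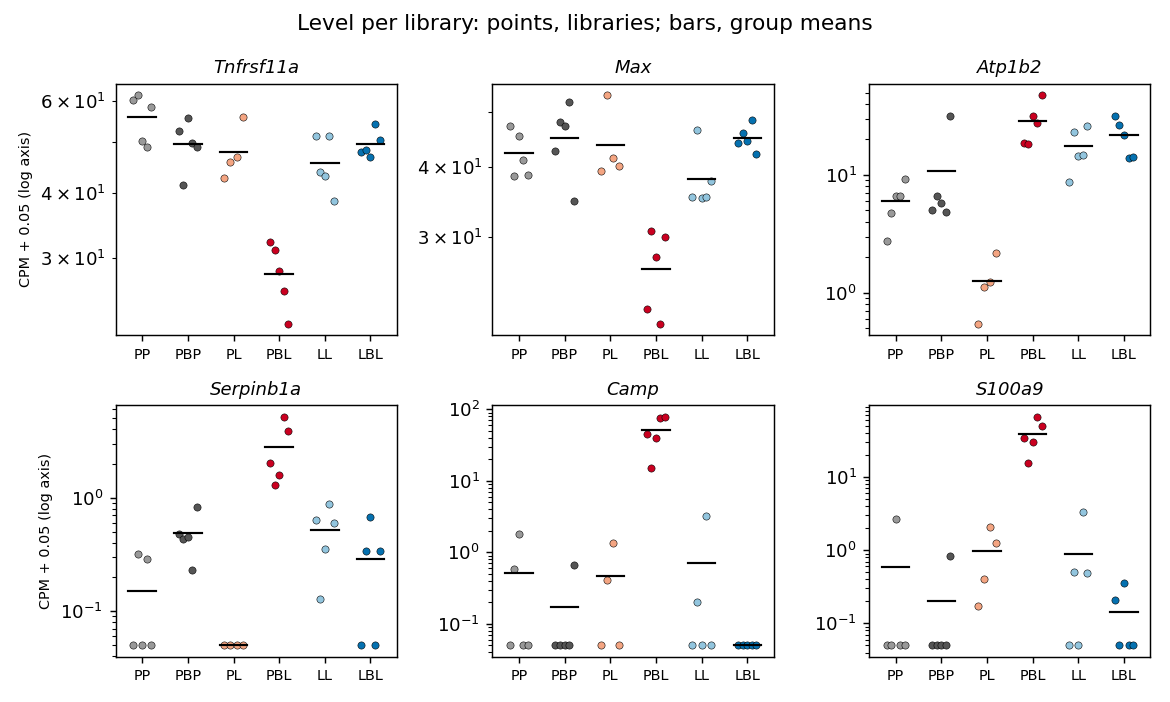
Level of 6 genes in each library (CPM plus 0.05, log axis; points, libraries; bars, group means) in the 6 groups. PBL is the low group for Tnfrsf11a and Max and the high group for Serpinb1a, Camp and S100a9, and PL is the low group for Atp1b2. Serpinb1a, Camp and S100a9 passed the filter on low counts only through PBL.

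Markers of neutrophils, blood cells that carry antimicrobial granules, were high in PBL. Of 13 markers 7 passed the filter on low counts, 5 of them only through the PBL libraries (S100a9, Camp, Ltf, Lcn2 and Retnlg), so that a lower level in LBL was fixed by the filter for these and the list is given by its levels. Camp, an antimicrobial peptide, had 45, 14.9, 39.4, 75.6 and 78.4 CPM in PBL and 0 counts in LBL, a level at least 646-fold lower. It had 0, 0.356, 1.3 and 0 in PL and 0, 0.153, 0, 3.18 and 0 in LL. S100a9, a subunit of calprotectin, had 33.7, 15.6, 30.3, 66.4 and 50.3 CPM in PBL, 0.158, 0, 0.31, 0 and 0 in LBL, 0.124, 0.356, 2.01 and 1.19 in PL and 0, 0.459, 0, 3.32 and 0.438 in LL. Every PBL library stood above all libraries of the other 3 groups for both genes. The 13 neutrophil markers summed to 128 to 487 CPM in PBL, 2.12 to 21.5 in PL, 0.876 to 36.0 in LL and 0.875 to 4.73 in LBL; of them Mpo was at 0 in PBL, and Elane, Ly6g and Mpo in PL. Of 5 monocyte genes tested, Plac8 and Chil3 were lower in LBL than in PBL and the other 3 were not called, with values of -0.85 for Vcan, 0.10 for Fn1 and 0.77 for Ccr2; Chil3 passed the filter only through PBL, with 0 counts in LBL and at least 378-fold lower, and the 11 monocyte markers summed to 22.0 to 73.1 CPM in PBL against 7.66 to 23.3 in the other 3 groups. Their part in other results was not tested.

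Markers of brain cells that the gate should leave out moved with the arms as well. The 11 neuronal genes tested had a median of 1.645 without depletion, where Snap25 and Camk2a were called higher, and -0.056 after it, and all 11 differences were negative, with a median of -1.579. The 12 neuronal markers summed to 28.9 to 58.7 CPM in PL, 58.4 to 248 in LL, 132 to 257 in PBL and 95.3 to 246 in LBL, with 0 at 0 in any of these groups. The astrocyte genes had medians of 1.439 and -0.493 (Atp1b2 and Aldoc were called higher without depletion, and Atp1b2 lower for the difference), the oligodendrocyte genes 1.51 and -0.143, and the red blood cell genes 1.944 and -0.942. The 12 astrocyte markers summed to 752 to 1021 CPM in PL, 760 to 890 in LL, 704 to 954 in PBL and 686 to 791 in LBL, so their sum was not low in PL. The 12 oligodendrocyte markers summed to 131 to 166 CPM in PL, 176 to 261 in LL, 168 to 325 in PBL and 221 to 331 in LBL. The 7 red blood cell markers summed to 6.48 to 19.8, 29.5 to 98.8, 5.68 to 155 and 19.6 to 56.0 CPM in the same order. The median difference with the instrument term was 0.872 for the neuronal and 0.081 for the astrocyte list. The mean log2 CPM of the neuronal list was 0.605 to 1.659 in the 4 PBP libraries of the Astrios and 3.424 in the 1 of the XDP. Their part in the differences was not tested, and in PL they cannot be told apart from instrument and day.

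With the instrument term, 0 members of the cytokine, NF-kB and interferon lists were called in LL minus PL. Their medians there were -1.31, -0.817 and -0.426, and their median differences were -0.772, -0.514 and -0.26, against -0.131, -0.201 and 0.019 without the term. The instrument term rests on 1 PBP library, replicate 5. The instrument therefore cannot be told apart from the noise, day and RNA quality of that library, and the loss of calls does not show that the falls were absent.

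The same difference can be read as the effect of depletion at the repeated injection minus that at the first. LBL and LL, both of the XDP, differed in 81 genes higher (0.487%) and 120 lower (0.722%), with a median size of 0.225 (log2) over all genes. PBL and PL, of different instruments, differed in 1828 higher (11%) and 1845 lower (11.1%), with a median size of 0.394. For Il1b, Tnf, Cxcl10, Tnfaip3, Nfkbia and Ifit1, LBL and LL were not called apart, with log2 values of -0.67, -0.43, 0.36, 0.36, 0.03 and 0.24. With the instrument term PBL minus PL had 3 calls and LBL minus LL 330. PBL minus PL had 2351 calls without PL replicate 2, 2369 without PL replicate 1 and 2326 without PBL replicate 4, and LBL minus LL had 85 without LL replicate 4, 113 without LL replicate 1, 133 without LL replicate 3, 128 without LBL replicate 1, 122 without LBL replicate 2 and 113 without LBL replicate 5.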

How the data were processed

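RNA from sorted microglia was sequenced after poly(A) selection with a low-input kit, per the labels' protocols. The authors deposited raw counts per gene for 29 libraries; the submitters' processing notes name FastQC 0.11.9, cutadapt 2.10, TopHat, SAMtools 1.10, Picard 2.13.2, HTSeq 0.11.0 and GRCm39, with no role or order, and neither strand setting nor annotation is given in the sources used here. The RNA quality number, a score, was deposited by the authors beside the sorter and sorting day. Total counts were 5670450 to 12671476 per library, and 0 columns were left unmapped.

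All 29 libraries were fitted with edgeR 4.0.16 in R 4.3.3 (quasi-likelihood test, 6 group means, TMM scaling, filterByExpr), with Benjamini-Hochberg adjustment over all 16632 genes and a threshold of 0.05; limma 3.58.1 (voom) and DESeq2 1.42.0 were alternatives. A difference was called bounded where its 95% interval lay within 1 log2 unit of 0. CPM values are counts scaled to the TMM-adjusted library total, shown as mean ± SD or per library. The contrast, the gene lists and the panel were chosen with earlier results of these data known. Genes were named by a rule: 36 panel genes; up to 8 called for the difference each way (mean of at least 5 CPM); up to 10 lower and 6 higher in both arms with a bounded difference (at least 10 CPM); and up to 4 members of a list with the largest fall. Others named beside list counts or as such were chosen after their values were seen. Replicates of a group differed beyond sampling noise in all 36 pairs (chi-square per degree of freedom 5.47 to 25.59). Of 27 pairs of same-numbered libraries, 1 had a correlation of deviations over 0.1 (range -0.311 to 0.13). No pairing by number was seen, which does not show that there was none, and the main fit did not pair the samples. On simulated counts for 16407 genes, the test of the difference of differences recovered 49% of genes changed by 1 log2 unit and 90% of those changed by 2, with 10 false calls among 16207 genes. The changed genes had a mean of at least 5 CPM and 1 common level in the 4 groups before the change. No shift between instruments or days was added. These rates therefore do not carry over to genes near the floor or to a shift that coincides with a group. Intervals on counts of 0 cover counting error only. A result on 1 gene is not reported here.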

Additional observations from a re-analysis of the deposited data

Results flagged for a closer look

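Among 40 genes in 4 groups (160 pairs), 17 values lay far from the rest of their group by Dixon's test, which chance flags in about 1 in 20 groups; they fell in 10 libraries, 6 in LL replicate 5 and 3 in PL replicate 2. In LL replicate 5 the values were Apoe 1531 CPM, Ccl5 49.5, Ch25h 22.2, Cxcl10 54.0, Il6 29.7 and Tlr2 583 CPM. In PL replicate 2 they were Cd40 13.4, Nfkbiz 66.0 and Max 53.7 CPM. The others were Max 46.5 CPM in LL replicate 2, Nfkbiz 39.95 in LBL replicate 2, Cxcl1 0.146 in LL replicate 1 and 0.631 in LBL replicate 1, Cxcl2 1.80 in LL replicate 4, Cybb 99.9 in PBL replicate 4, Il1a 1643 in PBL replicate 1 and Tnf 110.1 CPM in PBL replicate 2.

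The difference of the earlier LPS effect between the arms was called for Atp1b2 (log2 -4.25), Serpinb1a (-8.32), Max (0.97) and Tnfrsf11a (0.90), each with an adjusted p of 0.0495 (edgeR). The calls were lost under most alternatives, and the value of Serpinb1a rests on 0 counts in PL and is no bound. Serpinb1a also passed the filter on low counts only through PBL, where it was high, so its call is no support for a difference.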

How the results depend on the processing

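The difference of differences had 4 calls and 0 with size factors of DESeq2, total counts, no filter or limma voom. It also had 0 with a term for the sorter, RNA quality or sorting day (days 1 and 3 merged), and with PL of day 5 only. It had 1 with the replicate block, 31 with DESeq2, 35 with 19 libraries and 104 with PL of day 4 only. LL minus PL (463) had 717 with DESeq2, 739 with 19 libraries, 11 with the sorter term and 189 with PL of day 4 only. LBL minus PBL (1121) had 638 with RNA quality. LBL minus LL (201) had 126 without a filter, 430 with DESeq2, 330 with the sorter and 326 with RNA quality. PBL minus PL (3673) had 3 with the sorter and 2297 with RNA quality. Genes lower in both (242) were 8 with the sorter, and the bounded ones (144) were 0 with the sorter and 41 at a bound of 0.5. Genes higher in both (11) were 41 with total counts, 4 without a filter, 19 with DESeq2 and 0 with the sorter. The cause of these changes was not tested. Leaving out 1 library, including PBP replicate 5, which was chosen after seeing the data, gave 0 to 34 for the difference, 276 to 732 for LL minus PL, 669 to 1308 for LBL minus PBL, 85 to 376 for LBL minus LL, 2326 to 4389 for PBL minus PL, 175 to 287 lower in both, 94 to 182 bounded and 5 to 18 higher in both. With the sorter term LL minus PL was reversed for Ch25h (4.58) and Ptgs2 (1.46), and of 87 named genes 57 lost their call there and 27 were the same. LBL minus PBL was the same for 87. That was largely fixed by the design, since all LBL and PBL libraries were sorted on the XDP, and it is no test of the instrument. The sorter term rests on 1 PBP library, so the calls lost in LL minus PL are no test of the instrument either. The replicate block gave 395 calls for LL minus PL and 243 genes lower in both. The median SE of the difference was 0.3616 (log2), and that limits what could be called.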
